A study of Mus musculus with 12 samples.

Results

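Mouse brain microvascular endothelial cells kept in culture above glia were set against the same cell type taken fresh from brain, to ask which transcripts of the fresh cells stayed low in culture although glia were present. The comparison used 6 of the 12 arrays of the series, chosen by their labels alone. The 3 co-cultured arrays held primary endothelial cells grown for 5 days on filters, with mouse brain glial cultures 3 weeks old in the well beneath and no contact between the layers. As background to the glial step, 3 arrays of single-cultured cells, grown for 5 days on filters without glia, are given beside them, and 3 arrays of b.End5, a mouse brain endothelioma line, entered the model. The 3 non-cultured arrays held freshly isolated cells, taken up with magnetic beads coated for PECAM1, a surface adhesion molecule of endothelium. The labels name bead sorting only for these fresh cells, so culture and sorting cannot be told apart in what follows. The labels do not say whether replicates came from separate preparations, so the p-values speak only for the spread among these arrays, and with 3 arrays a group the precision is limited by their number.

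Endothelial cells of brain capillaries form the blood-brain barrier: they seal their contacts with tight junctions, carry nutrients through dedicated solute carriers, return foreign compounds to the blood with ATP-driven pumps and suppress vesicle traffic. Wnt ligands from neural cells, acting through Frizzled receptors, LRP coreceptors and beta-catenin with TCF/LEF factors, induce and keep this programme, and astrocytes and pericytes add further signals. Primary brain endothelium is known to lose part of the programme in culture, which is why glia are often grown in the same dish.

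Expression of 15204 genes was read on the deposited log2 scale, on which 1 unit is a 2-fold difference, with array medians between 7.21 and 7.40. A no-target level was set on each array from bacterial control probe sets and lay between 4.01 and 4.46. Between 79.4% and 82.9% of genes exceeded it. The co-cultured arrays correlated with each other at 0.986 to 0.991 and the non-cultured arrays at 0.994, and 316 to 645 genes lay over 1 log2 unit apart between a pair of co-cultured arrays, against 92 to 151 between a pair of non-cultured arrays. Among the b.End5 arrays, replicate 2 stood apart, with correlations of 0.968 and 0.969 against 0.995 for the other pair, and it widens the errors of some genes in the shared model. The gap between 3' and 5' control probe sets, a sign of RNA integrity, was 2.59 to 3.36 for Gapdh on co-cultured arrays and 2.31 to 3.48 on non-cultured arrays. For Actb it was 0.24 to 0.34 on co-cultured arrays and -0.03 to 0.20 on non-cultured arrays, and the part of this small shift in the results was not tested.

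A gene is said to rise or fall where limma's adjusted p lay under 0.05 and the difference was at least 2-fold. By that rule 2326 genes (15.3%) differed between co-cultured and non-cultured cells, of which 1384 (9.1% of all genes) rose and 942 (6.2%) fell. The falls of at least 4-fold numbered 298, those of at least 8-fold 125 and those of at least 32-fold 26. The rises of at least 4-fold numbered 555, those of at least 8-fold 269 and those of at least 32-fold 31. The median difference over all genes was -0.04. With each array centred on its median, which moved the median difference of all genes by -0.149, 1166 genes rose and 1213 fell, so rises made up 49.0% of called genes in place of 59.5%. Directions of large groups below are therefore relative to the scale of the deposited values.

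**Figure D1:**
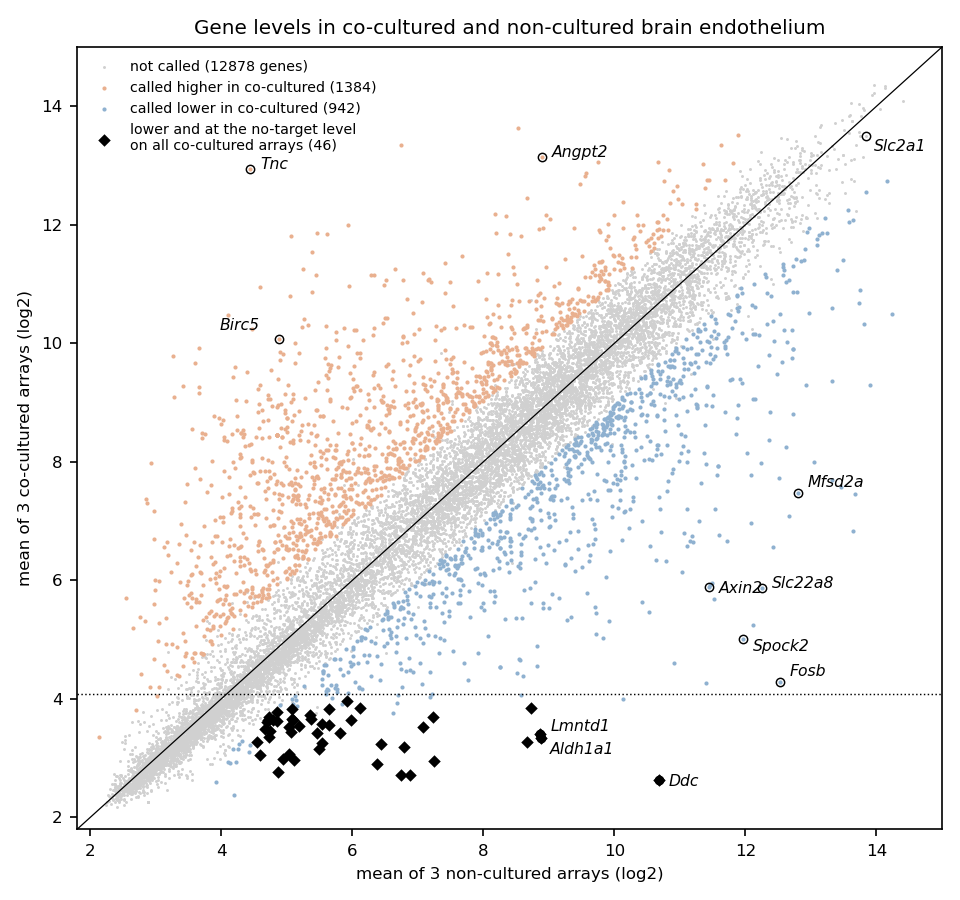
Each point is 1 of 15204 genes, with its mean log2 level over the 3 co-cultured arrays on the y axis and over the 3 non-cultured arrays on the x axis. Genes that fell lie below the diagonal, and the 46 lost transcripts, drawn as diamonds, lie under the dotted line of the mean no-target level of the co-cultured arrays.

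The arrays carried endothelial RNA in both groups. Pecam1 stood at 12.38, 12.53 and 12.51 on the co-cultured arrays, against 12.69, 12.44 and 12.37 in fresh cells. The VE-cadherin gene Cdh5 stood at 12.09, 12.36 and 12.29 on the co-cultured arrays, against 12.17, 12.00 and 11.96 in fresh cells. Both genes overlapped between the groups, and neither passed the test. The other defining endothelial markers were lower in culture. Kdr stood at 12.24, 12.43 and 12.67 on the co-cultured arrays, against 13.28, 13.03 and 13.08 in fresh cells. Tie1 stood at 10.64, 10.79 and 11.14 on the co-cultured arrays, against 12.25, 11.50 and 11.37 in fresh cells. Kdr, Tie1, Tek and Cldn5 did not overlap between the groups, and levels of Tek and Cldn5 are given below. Markers of macrophages and microglia were high in culture: 16 of 26 rose and 1 fell, against 9.1% and 6.2% of all genes, and their mean level was 7.53 to 8.65 on co-cultured arrays, 7.55 to 8.17 on single-cultured arrays and 6.17 to 6.79 on non-cultured arrays. Aif1, a macrophage calcium-binding protein, stood at 10.53, 9.49 and 8.93 on the co-cultured arrays, against 4.93, 5.48 and 6.49 in fresh cells. Co-cultured replicate 1 held the highest level of Aif1 among the co-cultured arrays. The mean level of 23 pericyte and smooth muscle markers was 7.37 to 7.99 on co-cultured arrays, 6.66 to 6.98 on single-cultured arrays and 7.16 to 7.71 on non-cultured arrays, with 8 that rose and 7 that fell, and without co-cultured replicate 2 a count of 5 rose. Blood cell markers averaged 5.04 to 5.36 on co-cultured arrays and 6.0 to 6.15 on non-cultured arrays, with 1 of 12 that rose and 5 that fell. The rise, of the platelet factor Pf4 (2.01), did not pass without co-cultured replicate 1 (1.46), non-cultured replicate 1 (1.75) or non-cultured replicate 2 (1.90). Astrocyte markers averaged 5.49 to 5.70 on co-cultured arrays and 6.11 to 6.12 on non-cultured arrays. Of 20 measured, 5 fell and 0 rose by limma, with 0 higher at an unadjusted p under 0.05. Slc1a3 stood at 5.56, 4.36 and 4.24 on the co-cultured arrays, against 6.48, 5.96 and 6.67 in fresh cells. The water channel gene Aqp4 was at the no-target level on 1 co-cultured and 3 non-cultured arrays. In bulk RNA, fewer cells of a type and less RNA per cell cannot be told apart.

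Among the genes with the strongest fresh-cell signal, part fell over glia while most did not. Of 2489 genes with a non-cultured mean of at least 10, 353 fell and 57 rose, while 6.2% of all genes fell and 9.1% rose. Of the 2489, 73 fell by at least 3 log2 units. These genes were picked for a high level on the same fresh arrays, which favours falls over rises, so their counts are a description. The largest falls included Fosb, an immediate early transcription factor, at the no-target level on 2 of 3 co-cultured arrays, with a log2 difference of -8.25 that is therefore approximate (SE 0.30, limma adjusted p 4.0e-09). Sgpp2, a sphingosine-1-phosphate phosphatase, stood at 4.32, 4.03 and 4.43 on the co-cultured arrays, against 11.49, 11.49 and 11.20 in fresh cells, with 1 co-cultured array at the no-target level (log2 difference -7.13, SE 0.18). The extracellular proteoglycan Spock2 stood at 4.67, 5.18 and 5.16 over glia and at 12.35, 11.81 and 11.74 in fresh cells (log2 difference -6.96, SE 0.21). Ptprr, a receptor-type tyrosine phosphatase, stood at 5.07, 4.93 and 5.71 on the co-cultured arrays, against 12.13, 12.11 and 12.12 in fresh cells. The largest falls were picked among genes without overlap between the groups, so the lack of overlap of these genes was given in advance.

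A transcript was counted as lost where it fell and lay at or under the no-target level on all 3 co-cultured arrays but above it on all 3 non-cultured arrays. There were 46 such transcripts, 0.303% of all genes and 0.381% of the 12077 genes above the no-target level on every non-cultured array. With another no-target level the number and partly the transcripts differ: 25 at the 75th percentile of the controls, 17 of them among the 46, and 68 at their maximum, 32 of them among the 46. For the 46 the fold is a bound, taken from the no-target level, with a median of at least 2.53-fold and a range from at least 1.38-fold to at least 96.7-fold. The bound reached 4-fold for 14 transcripts and 8-fold for 7. Most were thus dim in fresh cells, with a median level of 5.42. All 46 lay at the no-target level on all 3 single-cultured arrays as well, and 38 on all 3 b.End5 arrays.

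The brightest lost transcript was Ddc, the aromatic amino acid decarboxylase that keeps L-DOPA from crossing brain capillaries intact. It stood at 2.67, 2.40 and 2.80 on the co-cultured arrays, against 10.77, 10.60 and 10.65 in fresh cells, at least 96.7-fold lower over glia. The single-cultured arrays held 2.34, 2.92 and 2.83, and the b.End5 arrays 7.79, 8.27 and 7.88. Ddc was thus at the no-target level in both primary cultures and well above it in the line. Aldh1a1, which makes retinoic acid from retinaldehyde, stood at 3.40, 3.16 and 3.67 over glia and at 8.77, 8.81 and 9.0 in fresh cells, at least 27.5-fold lower. Its relative Aldh1a7 was at least 8.94-fold lower. Lmntd1 stood at 3.33, 3.54 and 3.12 over glia and at 8.50, 9.22 and 8.91 in fresh cells, at least 27.8-fold lower. Rhpn2 was at least 25.2-fold lower over glia, and Tecrl, a relative of an enzyme of fatty acid elongation, at least 24-fold lower.

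Smaller bounds were found for Atp13a5, a P-type ATPase (at least 4.93-fold lower), for Frem2, a basement membrane protein (at least 6.31-fold), for Adtrp, a regulator of the tissue factor pathway inhibitor (at least 4.10-fold), and for Nr4a3, an orphan nuclear receptor (at least 5.13-fold). Rspo1, a secreted Wnt agonist, was at least 2.64-fold lower. Angpt1, the TIE2 ligand of mural cells, had the smallest bound, at least 1.38-fold. Some lost transcripts are best known from other cells. Hbb-y, an embryonic globin, stood at 2.72, 2.68 and 2.75 over glia and at 6.65, 6.78 and 7.19 in fresh cells (at least 6.93-fold lower). Snap25, a synaptic protein, was at least 6.50-fold lower. The neuron marker Rbfox3, however, lay at the no-target level on every co-cultured and non-cultured array. Of 21 neuron markers 3 fell and 2 rose, against 6.2% and 9.1% of all genes. The lymphocyte genes Ccr7, a chemokine receptor (at least 3.72-fold lower), and Ms4a1, which encodes CD20 (at least 2.04-fold), were also lost, and the part of residual blood and brain cells in the fresh preparation was not tested. In the other direction, 2451 genes lay at the no-target level on every non-cultured array. Of these, 99 rose and lay above it on every co-cultured array, while 9.1% of all genes rose.

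**Figure D2:**
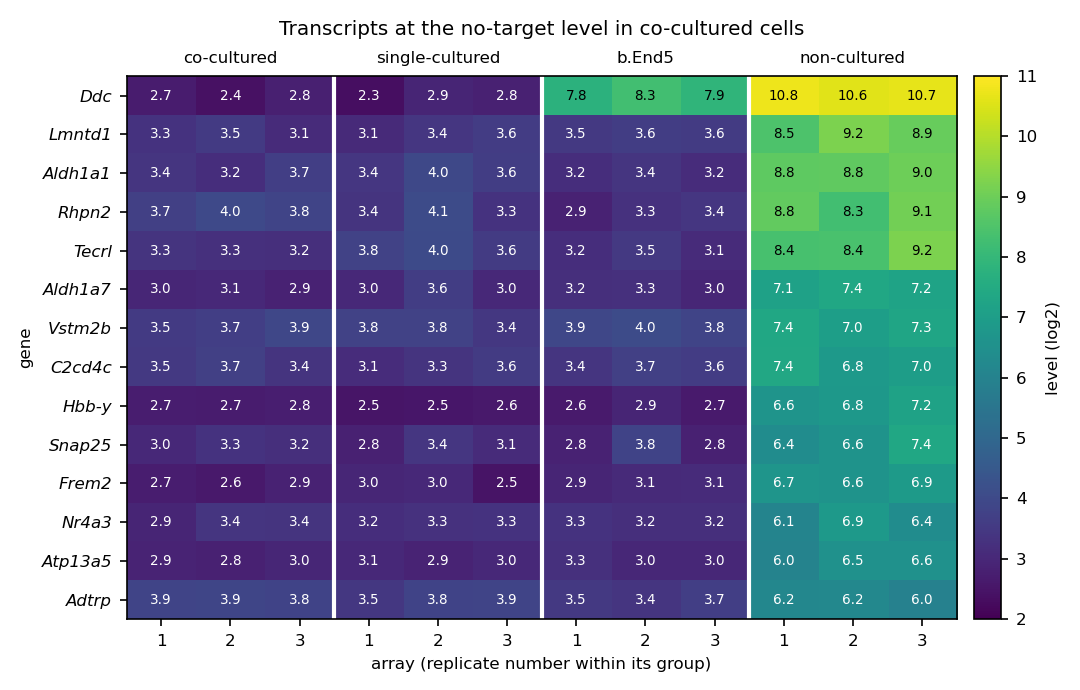
Each line is 1 of the 14 lost transcripts with a bound of at least 4-fold and each column 1 array, with co-cultured, single-cultured, b.End5 and non-cultured arrays from left to right and the log2 level as colour. The co-cultured and single-cultured columns are at the no-target level throughout, while Ddc is bright in b.End5.

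Most solute carriers of the barrier fell. Of 41 measured members of a list of 42 carriers and ion pumps, 28 fell and 1 rose, against 6.2% and 9.1% of all genes, and the median difference was -2.36, against -0.04 for all genes. Their mean level was 8.44 to 8.47 on co-cultured arrays, 8.49 to 8.56 on single-cultured arrays and 10.55 to 10.65 on non-cultured arrays. Carriers of organic anions and hormones come first. Slc22a8, the organic anion transporter OAT3, stood at 5.87, 6.18 and 5.57 on the co-cultured arrays, against 12.29, 12.31 and 12.18 in fresh cells (log2 difference -6.38, SE 0.16, limma adjusted p 6.1e-10). The single-cultured arrays held 6.01, 6.14 and 6.01, and the difference of co-cultured minus single-cultured cells was -0.18 (95% interval -0.52 to 0.17). Slco1c1, a thyroid hormone carrier, stood at 10.56, 10.16 and 10.27 over glia and at 13.82, 13.71 and 13.87 in fresh cells (log2 difference -3.47, SE 0.15). Both carriers were lower on every array with glia than on any fresh array.

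Vitamin and lipid carriers followed. Slc19a3, a thiamine transporter, stood at 5.98, 5.29 and 5.77 on the co-cultured arrays, against 11.76, 11.52 and 11.29 in fresh cells (log2 difference -5.84, SE 0.22). Slc52a3, which carries riboflavin, fell by 2.86 on the log2 scale (SE 0.25). Mfsd2a, the lysophospholipid carrier that brings docosahexaenoic acid into the brain and holds vesicle traffic down, stood at 7.35, 7.44 and 7.60 over glia and at 12.77, 12.81 and 12.84 in fresh cells (log2 difference -5.34, SE 0.27). On the single-cultured arrays Mfsd2a stood at 6.23, 7.07 and 6.88, below every co-cultured array, but the difference of 0.74 (95% interval 0.15 to 1.33) did not pass (limma adjusted p 0.23).

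Carriers of amino acids, monocarboxylates and iron showed the same direction. Slc6a6, a taurine transporter, stood at 9.53, 9.41 and 8.95 on the co-cultured arrays, against 13.23, 12.85 and 12.68 in fresh cells, a fall of 3.63. It was lower over glia than in single culture too, where it stood at 10.74, 10.18 and 11.25 (log2 difference -1.43, limma adjusted p 0.019). The iron exporter ferroportin, Slc40a1, stood at 10.62, 10.17 and 9.86 over glia, at 11.40, 11.49 and 11.54 in single culture and at 12.76, 12.60 and 12.77 in fresh cells. Its fall against fresh cells was -2.49 (SE 0.27) and against single culture -1.26 (limma adjusted p 0.03). Slc16a4, of the monocarboxylate carrier family, fell by 4.29 (SE 0.15) against fresh cells, and the lactate carrier Slc16a1 by 3.02 (SE 0.15).

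Slc38a3, a glutamine carrier, stood at 7.20, 7.10 and 7.93 on the co-cultured arrays, against 10.76, 10.55 and 10.72 in fresh cells, a fall of 3.27. The single-cultured arrays held 6.52, 6.37 and 6.48, so every array with glia lay above every array without, by 0.95 (limma adjusted p 0.045), which is under 2-fold.

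The glucose transporter Slc2a1 was an exception, at 13.57, 13.49 and 13.42 on the co-cultured arrays, against 13.84, 13.79 and 13.91 in fresh cells. Its levels did not overlap, but the difference of -0.35 did not pass (limma adjusted p 0.17). The only carrier that rose was Slc12a2, the sodium-potassium-chloride cotransporter, at 10.36, 10.60 and 10.38 over glia and 9.46, 9.32 and 9.25 in fresh cells (log2 difference 1.10, limma adjusted p 0.0076), and median centring brought it to 0.95, under 2-fold. Between co-cultured and single-cultured cells 0 of the 41 carriers rose and 2 fell by limma, against 0.901% and 0.289% of all genes. At an unadjusted p under 0.05, 7 were higher and 7 lower. The 2 were Slc6a6 and Slc40a1, and neither passed without co-cultured replicate 2 or 3 or without single-cultured replicate 1 or 3, where 0 fell. Without co-cultured replicate 1, 4 fell and 1 rose, without single-cultured replicate 2, 1 fell, and with the replicate number as a block 1 fell.

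**Figure D3:**
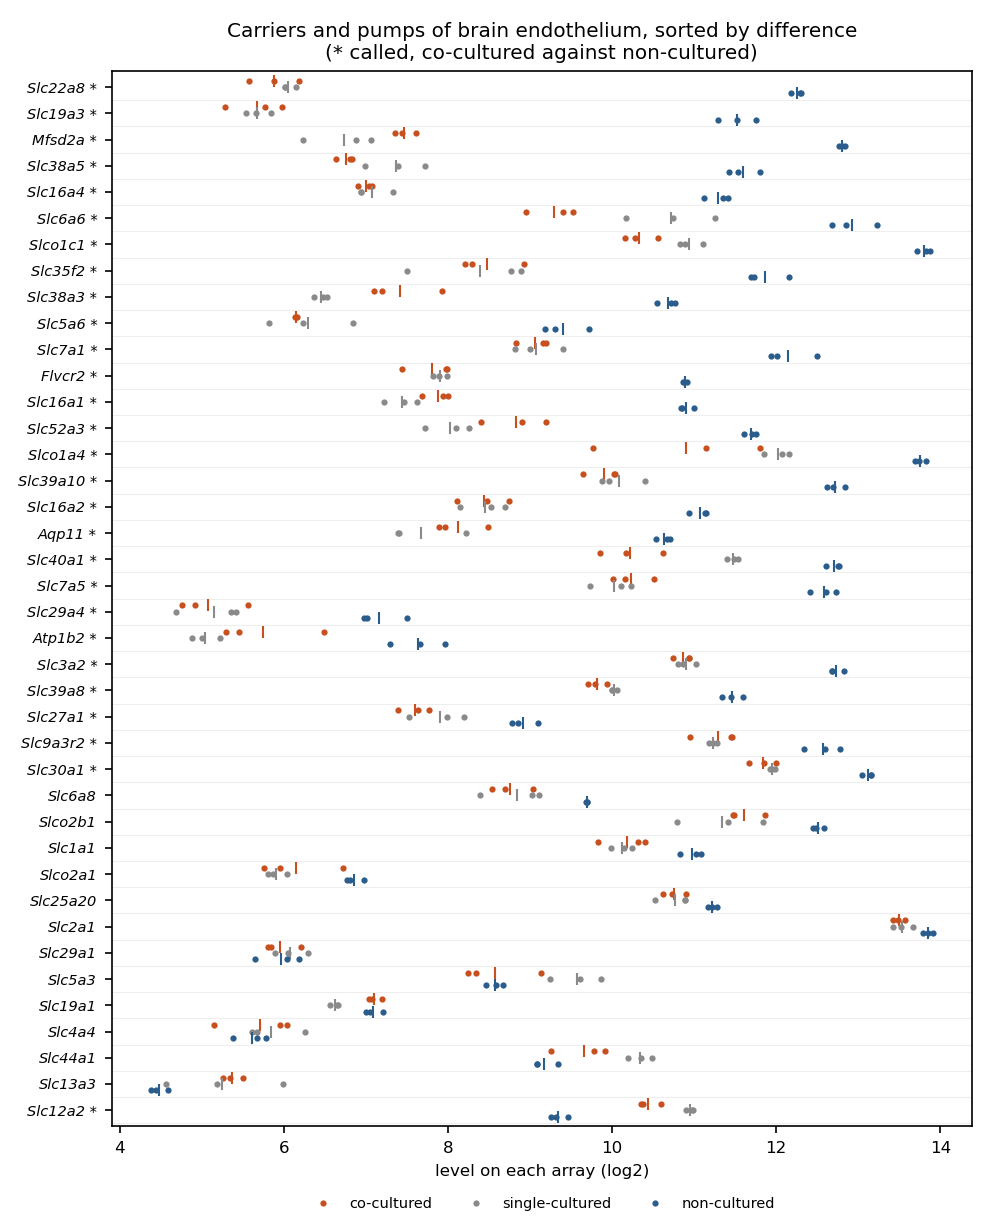
Each line is 1 of 40 of the 41 barrier carriers and pumps, with log2 levels on the x axis and 1 dot per array and a tick at each group mean, co-cultured arrays above, single-cultured arrays in grey between and non-cultured arrays below. An asterisk marks members that differed between co-cultured and non-cultured cells, and the dots of the cultures lie together well left of the fresh cells in most lines.

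Efflux pumps moved both ways. Of 23 ABC transporters measured, 4 rose and 4 fell, against 9.1% and 6.2% of all genes. Abcb1a, the main P-glycoprotein of mouse brain capillaries, stood at 10.57, 10.60 and 10.38 on the co-cultured arrays, against 13.01, 12.89 and 13.00 in fresh cells (log2 difference -2.45, SE 0.42, limma adjusted p 0.00076). Its paralogue Abcb1b, known to come up in cultured rodent brain endothelium, stood at 9.07, 9.12 and 8.38 over glia and at 4.88, 5.12 and 5.54 in fresh cells (log2 difference 3.68, SE 0.49). The paralogues thus changed in opposite directions, and each gene was without overlap between the groups. Abcg2, the breast cancer resistance protein, stood at 11.43, 11.43 and 11.30 over glia, at 12.13, 12.07 and 12.06 in single culture and at 12.75, 12.73 and 13.05 in fresh cells. It fell by 1.46 against fresh cells and lay 0.70 under single culture (limma adjusted p 0.0079), less than 2-fold. Abcc6 fell by 3.45 (SE 0.18), with 1 co-cultured array at the no-target level, and Abcc4 by 1.09 (SE 0.16), while the multidrug resistance proteins Abcc1 (2.61, SE 0.21) and Abcc3 (at least 10.8-fold) rose.

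Among 26 endocytic receptors, 10 fell and 6 rose, against 6.2% and 9.1% of all genes. The transferrin receptor gene Tfrc, which brings iron into the brain, stood at 10.20, 9.84 and 9.69 on the co-cultured arrays, against 12.89, 12.68 and 12.59 in fresh cells, a fall of 2.81. Receptors for leptin (Lepr, -2.47, SE 0.22), insulin (Insr, -1.65, SE 0.35) and immunoglobulin G (Fcgrt, -2.39, SE 0.42) fell as well. Lsr, the angulin of tricellular junctions, stood at 8.67, 8.94 and 9.27 over glia, at 7.72, 7.96 and 8.31 in single culture and at 12.01, 11.91 and 11.73 in fresh cells. Its difference from fresh cells was -2.92 (SE 0.18) and from single culture 0.96 (limma adjusted p 0.017), a little under 2-fold. Without co-cultured replicate 1 that difference was 1.11, and without single-cultured replicate 3 it was 1.12, and it then passed. Vldlr, the very-low-density lipoprotein receptor, rose too, with 2 of 3 non-cultured arrays at the no-target level. The macrophage mannose receptor Mrc1 rose by 2.26 (SE 0.64), and the part of macrophages in this rise was not tested.

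Of 42 enzymes of the metabolic barrier, 16 fell and 7 rose, against 6.2% and 9.1% of all genes. Car4, a carbonic anhydrase on the capillary surface, stood at 6.44, 7.87 and 8.43 on the co-cultured arrays, against 13.51, 13.41 and 13.46 in fresh cells (log2 difference -5.88, SE 0.39). On single-cultured arrays Car4 stood at 6.0, 6.56 and 5.82, and the difference of 1.45 (95% interval 0.60 to 2.31) did not pass (limma adjusted p 0.087). It passed with the replicate number as a block, at 1.45, and without co-cultured replicate 1, at 2.02. Alkaline phosphatase, Alpl, stood at 5.82, 5.51 and 5.57 over glia and at 10.24, 10.39 and 10.65 in fresh cells (log2 difference -4.79, SE 0.14). Single-cultured cells held 5.88, 5.80 and 5.62, and the interval of the difference from them was -0.45 to 0.18. The monoamine oxidases fell, Maob by 3.95 (SE 0.52) and Maoa by 1.63, as did epoxide hydrolase 1, Ephx1, by 2.15.

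Some detoxifying enzymes also differed between the cultures. Gstm1, a glutathione transferase, stood at 10.18, 10.33 and 10.28 over glia, at 11.70, 11.49 and 11.92 in single culture and at 11.90, 11.77 and 11.73 in fresh cells. It thus fell by 1.44 against single culture (limma adjusted p 0.0033) and by 1.54 against fresh cells, with no overlap. Cyp1a1, the target of the aryl hydrocarbon receptor, stood at 5.56, 5.57 and 5.75 over glia, at 7.92, 8.09 and 8.54 in single culture and at 4.23, 3.57 and 3.05 in fresh cells. Fresh cells lay at the no-target level on 2 of 3 arrays, so no size is given against them. Co-cultured cells lay under single culture on every array (co-cultured minus single-cultured -2.56, limma adjusted p 0.011), and without single-cultured replicate 3 the difference from single culture was -2.38 and did not pass. The secreted glutathione peroxidase Gpx3 rose by 3.12 against fresh cells and by 1.73 against single culture (limma adjusted p 0.0033).

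Part of the Wnt pathway lay low over glia. Of 42 genes measured, 13 fell and 3 rose, against 6.2% and 9.1% of all genes, with a median difference of -0.48. Their mean level was 6.92 to 7.20 on co-cultured arrays, 7.05 to 7.23 on single-cultured arrays and 8.03 to 8.09 on non-cultured arrays. Negative feedback genes that beta-catenin induces were among the falls. Axin2 stood at 5.73, 5.80 and 6.13 on the co-cultured arrays, at 6.65, 6.33 and 6.58 on the single-cultured arrays and at 11.57, 11.45 and 11.30 on the non-cultured arrays. Every co-cultured array lay under every single-cultured array, but that difference of -0.64 did not pass (limma adjusted p 0.22), while the difference from fresh cells was -5.56 (SE 0.23). Apcdd1, a membrane inhibitor of Wnt, stood at 8.51, 8.33 and 7.92 over glia and at 12.84, 12.36 and 12.67 in fresh cells, a fall of 4.37. The lipase Notum, which inactivates Wnt ligands, fell by 4.61 (SE 0.20), Nkd1 by 3.01 (SE 0.24) and the ubiquitin ligase Znrf3 by 1.71.

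The nuclear factors Lef1 and Tcf7 fell too. Lef1 stood at 5.38, 6.07 and 5.91 on the co-cultured arrays, against 9.92, 9.41 and 9.44 in fresh cells (log2 difference -3.80), and Tcf7 fell by 2.74 (SE 0.17). Reck, the partner of GPR124 in reading WNT7 signals on brain endothelium, stood at 8.94, 8.97 and 8.64 over glia, at 8.78, 9.36 and 8.94 in single culture and between 10.95 and 11.35 in fresh cells (log2 difference -2.25, SE 0.17). Its difference from single culture was -0.18 (95% interval -0.55 to 0.20). Of the 3 rises, the Wnt inhibitors Dkk2 and Dkk3 rose by 1.71 and 1.10, and Sp5 by 1.14. Sp5 passed no longer with median centring (0.99) or without non-cultured replicate 1 (0.98). Dkk3 was also higher than in single culture, by 1.08 (limma adjusted p 0.013).

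**Figure D4:**
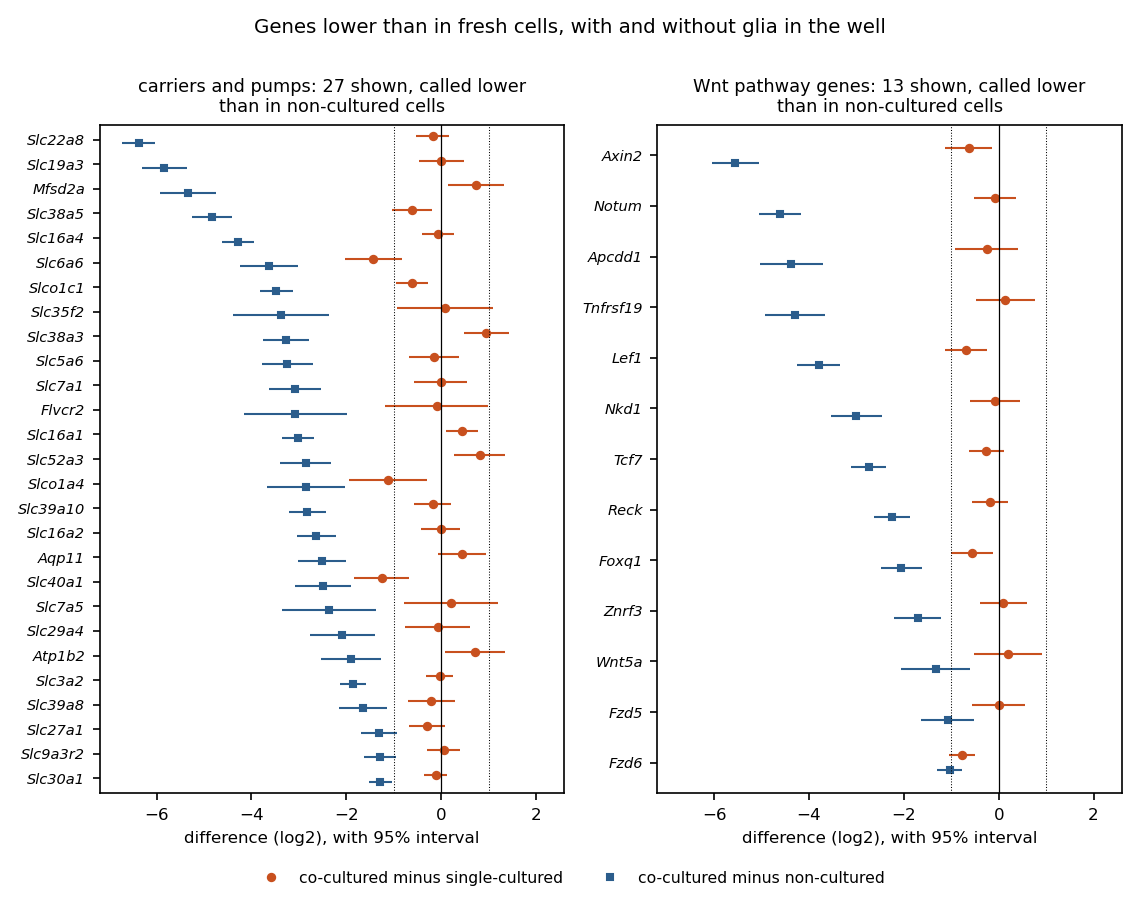
Each line is 1 of 27 of the 28 carriers and pumps, or of the 13 Wnt genes, that fell, with the log2 difference and its 95% interval on the x axis, for co-cultured minus single-cultured cells and for co-cultured minus non-cultured cells. The comparisons share the co-cultured arrays, and the differences from single culture run from -1.43 to 0.95 while those from fresh cells reach -6.38.

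Of 43 transcription factors known from brain endothelium, 10 fell and 5 rose, against 6.2% and 9.1% of all genes. Tbx3 stood at 6.65, 6.65 and 6.78 on the co-cultured arrays, against 9.89, 9.55 and 9.65 in fresh cells, a fall of 3.00. The zinc finger factor Zic2 (-2.14, SE 0.25), the forkhead factors Foxc1 (-2.20, SE 0.20) and Foxq1 (-2.06, SE 0.20), and the hypoxia-inducible factor Epas1 (-1.44, SE 0.15) fell. Meox2, a homeobox factor of brain endothelium, stood at 5.91, 6.0 and 6.06 over glia, at 3.65, 3.92 and 3.81 in single culture and at 2.85, 3.29 and 2.99 in fresh cells. It was at least 3.53-fold higher over glia than in fresh cells, and at least 3.24-fold higher than in single culture (limma adjusted p 3.2e-05), where all 3 arrays also lay at the no-target level. Pparg, a nuclear receptor of lipid metabolism, rose by 2.26 against fresh cells (SE 0.21). Foxc2 rose as well, but lay at the no-target level on 2 of 3 non-cultured arrays, so no size is given.

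Of 27 tight junction genes, 4 fell and 2 rose, against 6.2% and 9.1% of all genes, with a median of -0.29. Jam2, a junctional adhesion molecule, stood at 8.65, 9.27 and 10.27 on the co-cultured arrays, against 11.95, 11.93 and 11.88 in fresh cells, a fall of 2.53. With the replicate number as a block it passed as higher than in single culture, by 1.01. The polarity genes Patj (-1.29, SE 0.21) and Pard3 (-1.18, SE 0.16) fell, Patj to the no-target level on 1 co-cultured array, and Lsr, described with the receptors, is on this list too. Claudin 5, Cldn5, the main claudin of brain capillaries, stood at 12.48, 12.80 and 13.02 over glia and at 13.66, 13.62 and 13.56 in fresh cells. Its difference of -0.85 (limma adjusted p 0.00081) was under 2-fold, and reached -1.0 with median centring and -1.02 with cyclic loess, where it passed.

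Occludin, Ocln, stood at 11.15, 11.07 and 11.01 on the co-cultured arrays, against 12.63, 12.28 and 12.27 in fresh cells. Its difference of -1.31 did not pass in the model of all groups (limma adjusted p 0.083) although the arrays did not overlap, and it passed without b.End5 replicate 2, at -1.31. The rises of Jam3 (1.05) and Magi1 (1.03) were close to 2-fold and did not pass without co-cultured replicate 3, at 0.87 and 0.97, nor did Jam3 without non-cultured replicate 2, at 0.96. Median centring removed them too, at 0.90 and 0.89, and so did centring on housekeeping genes, at 1.00 and 0.99. The scaffold gene Tjp1 differed by -0.39.

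Of 42 general endothelial genes, 6 fell and 4 rose, against 6.2% and 9.1% of all genes, and the mean level was 11.12 to 11.39 on co-cultured arrays, against 11.44 to 11.48 on non-cultured arrays. With median centring 10 fell in place of 6. Tek, the TIE2 receptor, stood at 12.20, 12.11 and 12.44 over glia and at 13.58, 13.53 and 13.56 in fresh cells, a fall of 1.31 (SE 0.11). The transcription factor Gata2 (-1.77, SE 0.15), the VEGF receptor Flt1 (-1.59, SE 0.21), nitric oxide synthase Nos3 (-1.43, SE 0.25), the phosphatase Ptprb (-1.33, SE 0.16) and Sox17 (-1.25, SE 0.38) fell. Plvap, the diaphragm protein of fenestrated vessels that barrier endothelium keeps low, stood at 7.69, 8.84 and 9.49 on the co-cultured arrays, against 5.62, 6.99 and 7.57 in fresh cells. The rise of 1.95 (limma adjusted p 0.013) did not pass without co-cultured replicate 3 (1.54) or without non-cultured replicate 1 (1.39). Clec14a, an endothelial C-type lectin, rose by 1.70 (SE 0.14).

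Genes that follow the position of a vessel or its blood flow differed in both directions. Of 25 flow-responsive genes, 9 fell and 7 rose, against 6.2% and 9.1% of all genes. The flow-induced factor Klf4 stood at 8.15, 7.76 and 8.08 on the co-cultured arrays, against 12.89, 12.97 and 13.30 in fresh cells, and Klf2 at 7.03, 7.54 and 8.63, against 12.10, 12.72 and 12.70. Both fell without overlap, by 5.06 and 4.77. Of 42 arterial, capillary and venous genes, 13 fell and 6 rose, against the same shares of all genes. Gkn3, an arterial marker of mouse brain, fell by 5.54 (SE 0.28), the arterial kinase Bmx by 2.92 (SE 0.33) and Vegfc by 2.58 (SE 0.30). The venular chemokine receptor Ackr1 stood at 11.43, 9.95 and 7.36 over glia and at 5.46, 6.01 and 5.52 in fresh cells, a rise of 3.91 with a wide spread between the co-cultured arrays. P-selectin, Selp, was as spread, at 10.04, 7.48 and 6.26 over glia and 4.57, 4.99 and 5.38 in fresh cells, and its rise of 2.95 did not pass without co-cultured replicate 1 (1.89) or without non-cultured replicate 1 (2.74) or 2 (2.95). The arterial connexins Gja5 and Gja4 did not pass against fresh cells (-0.43 and 0.32) but were lower over glia than in single culture, by -2.28 (limma adjusted p 0.012) and -2.02 (limma adjusted p 0.0027).

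Immediate early genes, which cells induce within minutes of a stimulus, were high in the fresh cells. Of 41 measured, 23 fell over glia and 2 rose, against 6.2% and 9.1% of all genes, with a median difference of -1.27. Their mean level was 9.0 to 9.28 on co-cultured arrays, against 10.92 to 11.08 on non-cultured arrays. Fosb stood at 3.89, 4.04 and 4.91 on the co-cultured arrays, against 12.60, 12.36 and 12.63 in fresh cells. Fos stood at 9.29, 8.90 and 9.69 over glia and at 13.78, 13.84 and 14.06 in fresh cells, a fall of 4.60. The stress factor Atf3 stood at 9.33, 8.81 and 9.94 over glia and at 13.23, 13.32 and 13.42 in fresh cells, a fall of 3.97 (SE 0.29). None of these overlapped between the groups. Of the lost transcripts Nr4a3 belongs here, at 2.92, 3.41 and 3.36 over glia and 6.06, 6.86 and 6.39 in fresh cells. Its relative Nr4a1 stood at 6.22, 6.48 and 8.57 over glia, at 5.52, 5.64 and 6.79 in single culture and at 12.70, 12.62 and 12.67 in fresh cells. It fell by 5.57 against fresh cells, and with the replicate number as a block it passed as higher than in single culture, by 1.11. The rises were Myc (1.97, SE 0.19) and the matricellular gene Ccn2 (1.62).

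Promoter windows are shown for a pair of these genes, since cyclic AMP and calcium signals act on many immediate early genes through the TGACGT core of the CRE motif. The windows run from 250 bases before to 50 after the gene start, are written 5' to 3' along the gene's strand and come from RefSeq on GRCm38.p6, with Fos at chr12:85473640-85473939 on the plus strand and Nr4a3 at chr4:48045055-48045354 on the plus strand. Capitals mark TGACGT, searched on both strands, whose copies on opposite strands can overlap.
Fos: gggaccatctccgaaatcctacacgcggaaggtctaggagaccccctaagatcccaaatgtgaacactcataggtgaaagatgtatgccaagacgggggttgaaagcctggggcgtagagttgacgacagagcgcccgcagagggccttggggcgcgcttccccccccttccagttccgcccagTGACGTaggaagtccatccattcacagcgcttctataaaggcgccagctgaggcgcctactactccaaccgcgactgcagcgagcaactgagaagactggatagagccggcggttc
Nr4a3: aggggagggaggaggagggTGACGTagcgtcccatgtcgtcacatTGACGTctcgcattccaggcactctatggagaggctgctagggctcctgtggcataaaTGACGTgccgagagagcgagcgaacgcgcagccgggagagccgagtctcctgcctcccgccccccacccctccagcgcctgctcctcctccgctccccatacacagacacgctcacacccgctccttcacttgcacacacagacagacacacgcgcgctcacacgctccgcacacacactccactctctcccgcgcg
Nr4a3 held 3 matches and Fos 1, but the pair was picked among genes that fell and hold the motif, so a match was given in advance. Of 33 immediate early genes with a window, 7 (21.2%) held the motif, against 10.3% of all 12037 windows, and 5 of the 20 (25%) whose genes fell, and a match is a description of letters, not a site of binding.

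Of 28 heat shock genes, 7 fell and 3 rose, against 6.2% and 9.1% of all genes. The inducible chaperones Hspa1a and Hspa1b, near-identical copies whose probes may not tell them apart, fell by 6.21 (SE 0.20) and 6.81 (SE 0.26). Hspa1b stood at 7.01, 7.06 and 6.43 on the co-cultured arrays, against 13.84, 13.79 and 13.29 in fresh cells, with no overlap. The small heat shock gene Cryab rose by 3.25.

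Genes of the interferon response were mostly lower over glia: 23 of 38 fell and 2 rose, against 6.2% and 9.1% of all genes, with a median of -1.40. Their mean level was 8.66 to 8.80 on co-cultured arrays, against 9.85 to 9.92 on non-cultured arrays. The regulator Irf7 stood at 5.45, 5.73 and 5.39 on the co-cultured arrays, against 9.20, 9.03 and 8.79 in fresh cells (log2 difference -3.48, SE 0.52). The ubiquitin-like modifier Isg15 stood at 7.61, 8.73 and 8.46 over glia and at 11.43, 10.59 and 11.11 in fresh cells (log2 difference -2.78, SE 0.42). Both were separated without overlap. The chemokine Cxcl10 fell by 2.96 (SE 0.70). The rise of Ifitm1, 2.10, did not pass when any of 5 arrays was left out, co-cultured replicates 1 (1.18) and 2 (2.18) and non-cultured replicates 1 (2.00), 2 (1.99) and 3 (2.31). The other rise, of 2.71, was Irf8, a factor of myeloid cells. It stood at 7.88, 7.31 and 8.41 over glia and at 5.10, 5.19 and 5.18 in fresh cells. The b.End5 arrays held 7.68, 5.64 and 7.51, and the part of macrophages in the rise was not tested. Of 19 genes of antigen presentation 5 fell and 0 rose by limma, with 0 higher at an unadjusted p under 0.05, and 2 fell without co-cultured replicate 3 and 3 without non-cultured replicate 3.

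Of 33 leukocyte adhesion molecules and chemokines, 12 rose and 2 fell, against 9.1% and 6.2% of all genes. The monocyte attractant Ccl2 stood at 11.58, 10.98 and 10.87 on the co-cultured arrays, against 5.81, 6.40 and 6.80 in fresh cells, a rise of 4.81. The neutrophil attractant Cxcl1 fell by 2.05 (SE 0.21), at 10.87, 10.35 and 9.90 over glia and 12.31, 12.52 and 12.44 in fresh cells. E-selectin, Sele, stood at 8.86, 7.65 and 7.82 over glia, at 10.06, 10.48 and 11.07 in single culture and at 6.33, 6.20 and 5.75 in fresh cells. It lay 2.02 above fresh cells and under single culture (co-cultured minus single-cultured -2.43, limma adjusted p 0.003), with no overlap among the 3 groups.

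Angiogenic and vasoactive signals changed within the same list in opposite directions. Of 43 genes of the Notch, VEGF and TIE systems, 12 rose and 9 fell, against 9.1% and 6.2% of all genes. Angpt2, the TIE2 antagonist of sprouting vessels, stood at 13.14, 13.14 and 13.16 on the co-cultured arrays, against 9.04, 8.74 and 8.92 in fresh cells, a rise of 4.25. Placental growth factor, Pgf, rose by 4.86 (SE 0.20), while the Notch ligand Dll1 fell by 2.51 (SE 0.32). Of 39 vasoactive genes, 9 rose and 4 fell, against the same shares of all genes. Endothelin 3, Edn3, stood at 4.78, 5.21 and 5.09 over glia and at 9.80, 9.93 and 9.75 in fresh cells, a fall of 4.80. The endothelin receptor Ednrb stood at 7.84, 10.30 and 11.36 over glia, at 6.30, 6.52 and 6.06 in single culture and at 4.74, 5.36 and 5.43 in fresh cells. Its rise was 4.65 against fresh cells and 3.54 against single culture (limma adjusted p 0.015), and the rise against single culture did not pass without co-cultured replicate 2 (3.31), single-cultured replicate 1 (3.54) or single-cultured replicate 3 (3.42).

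Of 25 coagulation genes, 12 rose and 4 fell, against 9.1% and 6.2% of all genes. Coagulation factor V, F5, stood at 5.15, 5.02 and 5.13 on the co-cultured arrays, against 9.62, 9.87 and 9.66 in fresh cells (log2 difference -4.62, SE 0.23). Tissue factor, F3, which starts clotting, was at least 19.8-fold higher over glia, and the urokinase gene Plau stood at 10.19, 10.42 and 10.19 over glia and at 5.21, 5.07 and 5.39 in fresh cells (log2 difference 5.04, SE 0.50).

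Nearly all cell cycle genes rose, 47 of 51, against 9.1% of all genes, and 0 fell by limma, with 0 lower at an unadjusted p under 0.05. Their mean level was 8.99 to 9.16 on co-cultured arrays, 8.01 to 8.23 on single-cultured arrays and 6.21 to 6.35 on non-cultured arrays. The checkpoint kinase Bub1 stood at 9.10, 9.25 and 8.90 on the co-cultured arrays, against 3.14, 3.02 and 3.68 in fresh cells, at least 30.1-fold higher. Topoisomerase II alpha, Top2a, stood at 10.62, 10.35 and 10.25 over glia and at 5.53, 5.60 and 4.63 in fresh cells, a rise of 5.15, and cyclin B2, Ccnb2, at 9.91, 9.82 and 9.83 over glia and at 5.32, 5.37 and 4.01 in fresh cells, of which 1 was at the no-target level, a rise of 4.96. Cell cycle genes were also higher over glia than in single culture, where 23 of 51 rose against 0.901% of all genes, and 15 without single-cultured replicate 1. Bub1 stood at 7.34, 7.87 and 7.43 on the single-cultured arrays (log2 difference 1.54, limma adjusted p 0.0027), and survivin, Birc5, at 10.13, 10.18 and 9.89 over glia and 8.83, 8.62 and 8.98 in single culture (log2 difference 1.26, limma adjusted p 0.0013). Every array with glia lay above every array without for both genes.

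Promoter windows of a pair of these genes are shown because cell cycle promoters are known for CCAAT boxes, bound by NF-Y, and for the TTTGAA element of repression outside division, the core of the CHR. The windows come from RefSeq on GRCm38.p6 and are written as above, Top2a at chr11:99024140-99024439 and Ccnb2 at chr9:70421505-70421804, both on the minus strand. Capitals mark CCAAT and TTTGAA on either strand, and TTTGAA can overlap CTTTGA, a further motif that was searched.
Top2a: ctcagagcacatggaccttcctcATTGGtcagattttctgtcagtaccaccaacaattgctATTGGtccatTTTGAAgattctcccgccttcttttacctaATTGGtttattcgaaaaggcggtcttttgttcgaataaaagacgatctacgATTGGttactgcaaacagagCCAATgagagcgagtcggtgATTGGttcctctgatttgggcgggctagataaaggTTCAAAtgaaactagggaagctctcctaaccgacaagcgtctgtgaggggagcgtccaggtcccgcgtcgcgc
Ccnb2: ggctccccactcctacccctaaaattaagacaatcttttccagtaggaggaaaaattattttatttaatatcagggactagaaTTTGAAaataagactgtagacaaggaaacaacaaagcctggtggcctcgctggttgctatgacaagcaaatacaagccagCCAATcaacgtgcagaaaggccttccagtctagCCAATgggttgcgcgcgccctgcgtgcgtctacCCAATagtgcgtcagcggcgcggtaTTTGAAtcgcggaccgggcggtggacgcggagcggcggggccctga
Top2a held 8 matches and Ccnb2 5, but the pair was picked among genes that rose and hold both motifs, so matches were given in advance. Of 40 cell cycle genes with a window, 26 (65%) held CCAAT, against 38.4% of all windows, and 18 (45%) held TTTGAA, against 13.1%. In 26 windows of Wnt pathway genes the TCF/LEF cores CTTTGA and CTTTGT, which share their first letters, were found in 3 (11.5%) and 8 (30.8%), against 13.5% and 15.3% of all windows. Of the 7 such windows whose genes fell, CTTTGA was in 0 and CTTTGT in 1 (14.3%).

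Extracellular matrix genes rose in number, 35 of 54, and 2 fell, against 9.1% and 6.2% of all genes. Tenascin C, Tnc, stood at 13.17, 12.92 and 12.71 on the co-cultured arrays, against 4.57, 4.40 and 4.35 in fresh cells, a rise of 8.50 (SE 0.18). Thrombospondin 1, Thbs1, rose by 6.41 and osteopontin, Spp1, by 6.23, while elastin, Eln, fell by 2.99. Fibrillar collagens and a protease were higher than in single culture and spread between the co-cultured arrays. Col1a1 stood at 11.56, 10.03 and 9.07 over glia, at 7.60, 8.13 and 7.43 in single culture and at 6.0, 5.87 and 6.29 in fresh cells. Its rise against single culture, 2.50 (limma adjusted p 0.027), did not pass without co-cultured replicate 2 (2.59), single-cultured replicate 1 (2.44) or single-cultured replicate 3 (2.36). The gelatinase Mmp9 stood at 9.89, 8.81 and 7.37 over glia, at 5.68, 5.41 and 5.29 in single culture and at 4.72, 4.70 and 4.50 in fresh cells, a rise of 3.23 against single culture (limma adjusted p 0.0036). For both, co-cultured replicate 1 was the highest of the co-cultured arrays. Aif1 stood at 10.53, 9.49 and 8.93 over glia and at 10.36, 9.15 and 9.08 in single culture. The part of macrophages in the rises of Col1a1 and Mmp9 was not tested. Fibroblast markers averaged 5.97 to 6.87 on co-cultured arrays, 5.64 to 5.96 on single-cultured arrays and 5.37 to 5.82 on non-cultured arrays. Of 18 measured, 6 rose and 2 fell against fresh cells, against 9.1% and 6.2% of all genes. Against single culture 4 rose and 0 fell by limma, against 0.901% and 0.289% of all genes. At an unadjusted p under 0.05, 1 was lower there. Col1a1 and Col3a1 are themselves on this list. Lum lay at the no-target level on all 6 co-cultured and non-cultured arrays, while Dcn and Pdgfra lay above it on all 6. Dcn stood at 7.80, 5.92 and 5.84 on the co-cultured arrays, highest on replicate 1 like Col1a1. Non-cultured replicates 1 and 2 held 5.78 and 6.69, and replicate 3 lay above both, so Dcn overlapped between the groups. Pdgfra stood at 5.38, 5.13 and 4.82 over glia and at 5.39, 5.72 and 5.44 in fresh cells, so it was not higher over glia. Dcn and Pdgfra also overlapped between co-cultured and single-cultured arrays. The part of fibroblasts in the collagen result was not tested.

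Against single culture, 181 genes (1.19%) differed over glia, of which 137 (0.901%) rose and 44 (0.289%) fell. With median centring 107 rose and 60 fell, a share of rises of 64.1% in place of 75.7%. Differences of at least 8-fold were 3 rises and 1 fall. The fall was Moxd1, a copper monooxygenase family member, at 5.43, 4.64 and 4.02 over glia and 7.16, 9.27 and 7.99 in single culture, while fresh cells held 4.11, 4.83 and 4.56, so that co-cultured and fresh cells overlapped. The costimulatory receptor Tnfrsf9 stood at 10.20, 9.77 and 10.76 over glia, at 6.53, 5.73 and 6.62 in single culture and at 4.28, 4.63 and 4.49 in fresh cells, a rise of 3.95 against single culture (limma adjusted p 7e-05). For Tnfrsf9 the 3 groups did not overlap.

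A few transcripts below their fresh level stood higher over glia than without. Rgs5, a regulator of G-protein signals known as a pericyte marker, stood at 6.35, 7.01 and 7.04 on the co-cultured arrays, at 5.07, 5.43 and 5.30 on the single-cultured arrays and at 11.10, 10.78 and 11.29 on the non-cultured arrays. It lay 1.53 above single culture (limma adjusted p 0.0034), and its difference from fresh cells was -4.26. The mean level of the pericyte and smooth muscle markers was likewise higher over glia, 7.37 to 7.99, than in single culture, 6.66 to 6.98, and its part in this result was not tested. Gatm, which makes the creatine precursor guanidinoacetate, stood at 7.66, 8.16 and 8.59 over glia, at 6.71, 6.34 and 7.17 in single culture and at 10.97, 10.71 and 11.35 in fresh cells, 1.40 above single culture. Pmp22, a tetraspan membrane protein, stood at 9.17, 9.63 and 9.35 over glia, at 7.45, 8.17 and 7.41 in single culture and at 10.81, 11.12 and 11.05 in fresh cells, 1.70 above single culture. Gatm and Pmp22 were picked after their values were seen. In all 3 genes every array with glia lay between the single-cultured and the fresh arrays.

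**Figure D5:**
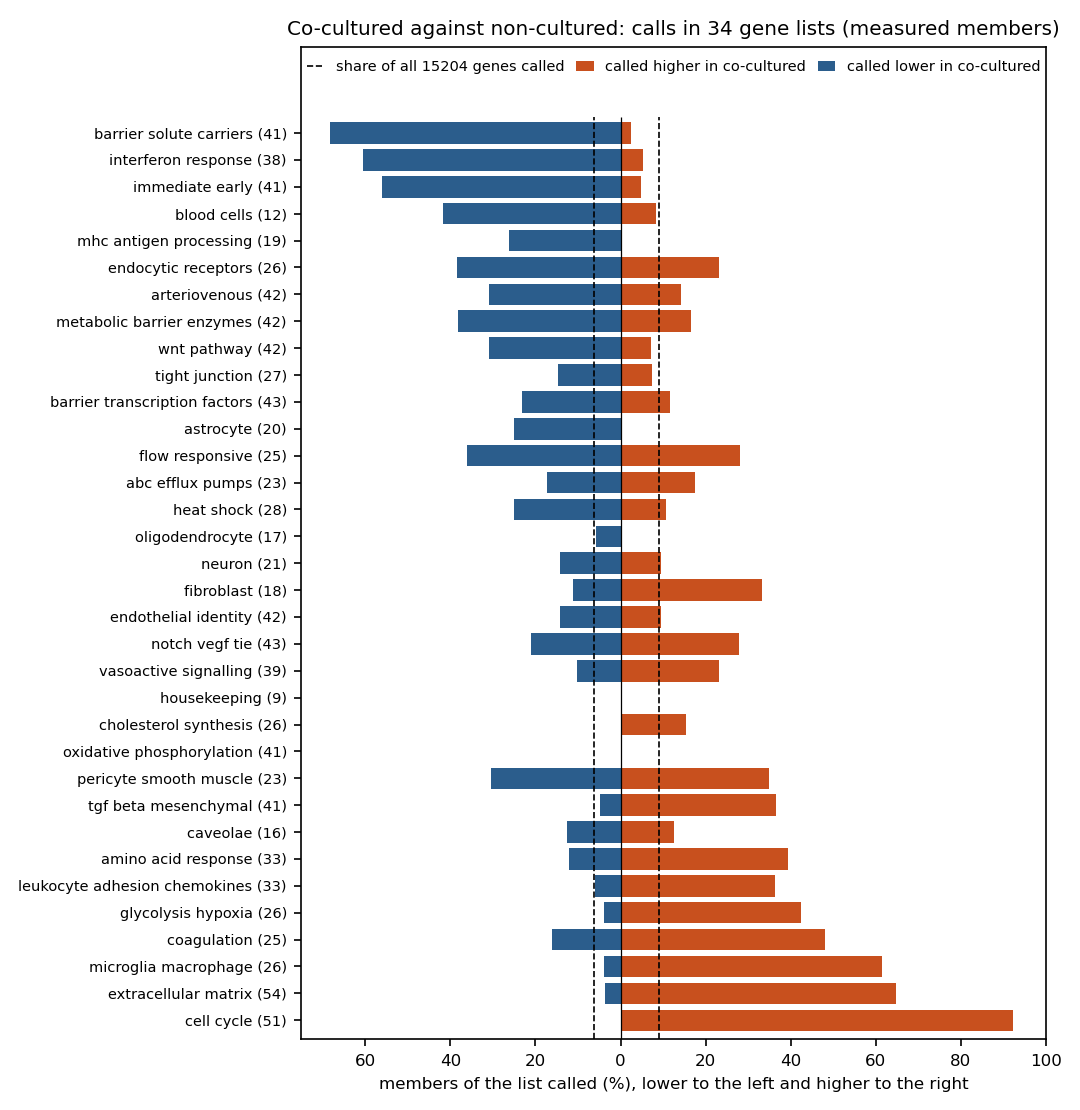
Each line is 1 of 34 gene lists, with the percent of measured members that fell (to the left) and rose (to the right) in co-cultured against non-cultured cells, and dashed lines at the 6.2% and 9.1% of all genes. Barrier carriers fell in 28 of 41 members and cell cycle genes rose in 47 of 51.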

How the data were processed

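The deposited table held log2 values that the authors had made with RMA, per the submitters' processing notes. RMA corrects background, applies quantile normalisation and summarises probes, so it can compress differences of dim and very bright transcripts. Of its version and probe-set definition nothing was given in the sources. Per the labels, RNA was extracted with an on-column DNase step and converted to cDNA by an amplification kit made for small amounts.

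Of 21625 probe sets, 64 were controls. RefSeq tables of GRCm38.p6 gave 1 symbol to 16537 and none to 5024, and for 987 genes with several probe sets the one with the highest mean was used, leaving 15204 genes with no filter on low values. On each array the no-target level was set at the 95th percentile of its 27 bacterial controls. Where all arrays of a group lay at or under that level for a gene, the fold is a bound, computed against that level or the gene's own value where higher.

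Differences were fitted with limma 3.58.1 (R 4.3.3), using lmFit and eBayes on 4 group means over 12 arrays with 8 residual degrees of freedom, with Benjamini-Hochberg adjustment over all 15204 genes of a comparison. SE is limma's moderated standard error, and intervals of differences come from the same fit. Tables and figures used Python 3.11.15, pandas 2.3.3 and matplotlib 3.10.9. On simulated data, 88% of 100 genes changed by 1.5 log2 units and 100% of 100 changed by 3 were recovered for co-cultured against non-cultured cells over 15204 genes, and 91% and 99% for co-cultured against single-cultured cells. The replicate numbers of the labels were tested for pairing: deviations of same-numbered arrays correlated at 0.227, 0.135 and 0.232 between co-cultured and single-cultured cells, all above 0.1, and at -0.127, -0.112 and -0.196 between co-cultured and non-cultured cells. A replicate block is given only as an alternative, beside results of co-cultured against single-cultured cells where it changes a call.

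The comparison, its gene lists and its tests were chosen with earlier results of these data known. Genes were named by rule: the 15 largest falls and 10 largest rises, up to 3 falls and 2 rises of each of 34 lists, 5 falls and 5 rises against single culture, and 25 fixed genes, 161 in all with overlaps counted once. The 15 falls and 10 rises were picked among genes whose co-cultured and non-cultured arrays did not overlap. Some genes stand on several lists. Values of a few genes that the counts include are not reported here. Other genes the text names were chosen after their values were seen. Alternatives were other scalings (median, housekeeping genes, cyclic loess), the 2 groups alone, other eBayes settings, a filter on dim genes, the mean of probe sets, other thresholds, the replicate block and leaving out each array.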

Additional observations from a re-analysis of the deposited data

How the results depend on the processing

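Between co-cultured and non-cultured cells, 913 to 960 genes fell and 1285 to 1393 rose when each array of those groups was left out, and 46 to 51 were lost. Without a minimum fold 2387 fell and 2837 rose. The lost transcripts depended on the no-target level: 25 were lost with the 75th percentile of the controls and 68 with their maximum, of which 17 and 32 were among the 46, and 1, Ddc, was left when the dimmest 30% of genes were removed, as that filter takes out most dim genes. Between co-cultured and single-cultured cells, leaving out single arrays gave 30 to 54 falls and 82 to 183 rises, with 82 rises without single-cultured replicate 1. No minimum fold gave 107 falls and 276 rises there, and an adjusted p under 0.01 gave 20 falls and 77 rises. Without b.End5 replicate 2 the counts were 979 falls and 1418 rises against fresh cells, and 58 and 173 against single culture.

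With the replicate number as a block, 922 genes fell, 1359 rose and 45 were lost against fresh cells, where deviations of same-numbered arrays correlated negatively. Against single culture 48 fell and 154 rose with that block, and whether the numbers pair is not known. Beside the results given in the report, the block made Kcne3 (1.99) and Ifitm1 (1.96) pass as higher over glia, and changed no other call among the 161 named genes. It also moved the number of risen members against single culture by 1 to 2 in 9 of the 34 lists, and 1 carrier fell in place of 2.

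Of the 161 named genes, 23 changed their call under at least 1 alternative against fresh cells and 27 against single culture, and 0 reversed. Of the 68 list counts (rises and falls of 34 lists), 34 moved by over 1.5 times under at least 1 alternative against fresh cells and 40 against single culture. With the dimmest genes left out, 2 blood cell markers fell in place of 5 and 0 macrophage markers in place of 1.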

Other observations

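Of 33 genes of the amino acid response, 13 rose and 4 fell, against 9.1% and 6.2% of all genes. Mthfd2, a mitochondrial enzyme of the folate cycle, stood at 9.53, 9.54 and 9.34 on the co-cultured arrays, against 5.92, 5.52 and 5.36 in fresh cells (log2 difference 3.87, SE 0.33). The serine synthesis enzyme Psat1 rose by 2.83 (SE 0.23) and asparagine synthetase, Asns, by 1.53 (SE 0.15), while the stress factor Ddit3 fell by 1.33 (SE 0.15). Of 26 genes of glycolysis and hypoxia, 11 rose and 1 fell, against the same shares of all genes. Egln3, a prolyl hydroxylase that hypoxia induces, stood at 10.19, 10.66 and 10.58 over glia and at 4.26, 4.11 and 3.95 in fresh cells, with 2 non-cultured arrays at the no-target level, so no size is given, and Slc16a3, a lactate exporter, rose by 4.17 (SE 0.35). The fall, Ndrg1 at -1.01, did not pass without co-cultured replicate 3 (-0.91) or non-cultured replicate 1 (-0.96). By limma 0 of 41 genes of oxidative phosphorylation rose or fell, with 14 higher and 2 lower at an unadjusted p under 0.05.

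Smooth muscle and mesenchymal genes rose in part. Of 41 genes of the TGF-beta and mesenchymal list, 15 rose and 2 fell, against 9.1% and 6.2% of all genes. Inhba, an activin subunit, stood at 11.78, 11.31 and 9.76 on the co-cultured arrays, against 4.41, 4.31 and 5.06 in fresh cells (log2 difference 6.36, SE 1.31). The contractile gene Tagln stood at 12.21, 12.26 and 12.06 over glia and at 7.83, 8.11 and 8.61 in fresh cells (log2 difference 4.00, SE 0.27), and Acta2, also a smooth muscle marker, rose by 3.30 (SE 0.35). The ligand Tgfb2 fell by 1.22 (SE 0.19) and the coreceptor Tgfbr3 by 1.20 (SE 0.29), and Tgfbr3 did not pass without co-cultured replicate 3 (-0.98). Of 26 cholesterol synthesis genes 4 rose and 0 fell by limma, against the same shares of all genes, with 3 lower at an unadjusted p under 0.05. Squalene epoxidase, Sqle, rose by 1.51 (SE 0.17).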
